A study of Mus musculus with 2 samples.

Results

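The 7 genes described here move or bind zinc: the zinc transporters Slc30a8, Slc30a1, Slc30a5, Slc30a7 and Slc39a14 and the metallothioneins Mt1 and Mt2. They were taken by gene symbol and are 7 of 31053 genes in the tables. Single-cell RNA-seq (droplets, tags at the 3′ end of each transcript) was run on pancreatic islets of male C57/B6 mice in 1 wild-type library (WT) and 1 library from high-fat-diet-fed mice (HFD), and the comparison asks how islet cells differ after the diet. All mice were 16 weeks old. From the age of 6 weeks, HFD mice had spent 10 weeks on a diet that supplied 60% of kcal as fat, while the study's methods give standard chow for mice not on it. Each library pooled the islets of 4 mice, which cannot be separated, and dead cells were removed from both before loading. With 1 library per group there is no replicate and no test between the diets, so every interval below is a 95% interval for counting error alone.

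Zinc enters the cytosol through the Slc39a family (ZIP proteins) and leaves it through the Slc30a family (ZnT proteins). Slc30a8 encodes ZnT8, which loads zinc into insulin granules, where the hormone is stored as a zinc crystal. Slc30a1 exports zinc across the plasma membrane, Slc30a5 and Slc30a7 carry it into the early secretory pathway, and Slc39a14 imports zinc and non-transferrin iron. Mt1 and Mt2 are small cysteine-rich proteins that bind zinc and copper, and their transcription, like that of Slc30a1, is raised by the zinc-sensing factor Mtf1 when free zinc rises. Metallothionein transcription also responds to glucocorticoids and to oxidative stress.

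Barcodes with at least 500 genes and at most 20% mitochondrial UMIs (unique molecular identifiers, each a counted transcript) were kept, less those with the highest doublet scores. That left 2498 WT cells with a median of 24030 UMIs and 6672 HFD cells with a median of 10919 UMIs; 3 kept barcodes occurred in both libraries. Clusters were built without the 7 genes, the other zinc genes, Cck and the hormone genes Ins1, Ins2, Gcg, Sst and Ppy. Pyy and Iapp were not left out. The clusters were named "-like" from marker lists. β-like cells numbered 1671 in WT and 5492 in HFD, with insulin at 61.5% and 57.4% of their UMIs. Clusters 0, 1 and 2 held most WT β-like cells, and clusters 3, 4, 5, 14 and 15 most of the HFD ones. Kept apart from them were cluster 11, insulin cells led by Rbp4, Sst, Pyy and Ppy (190 WT and 317 HFD cells), and clusters 6 and 8, insulin cells low in UMIs (144 and 48 cells). The other classes used were alpha-like (56 and 206), delta-like (50 and 118), endothelial-like (127 and 139), pericyte or stellate-like (44 and 14), fibroblast-like (59 and 23), ductal-like (58 and 34), macrophage-like (40 and 45) and T-like cells (12 and 166). A cluster led by Ppy and Pyy (17 and 24 cells) stayed unnamed.

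Mt1 (ENSMUSG00000031765, chr8:94179082-94180327, plus strand) and Mt2 (ENSMUSG00000031762, chr8:94172664-94173568, plus strand) are neighbours in the GRCm38 annotation, with 5513 bases between them. Slc30a8 (ENSMUSG00000022315) lies at chr15:52295553-52335798, Slc30a1 (ENSMUSG00000037434) at chr1:191906767-191913247, Slc30a5 (ENSMUSG00000021629) at chr13:100802648-100833427, Slc30a7 (ENSMUSG00000054414) at chr3:115938973-116007406 and Slc39a14 (ENSMUSG00000022094) at chr14:70303469-70351425. RefSeq promoter sequences (GRCm38.p6) matched 5 of the 7 genes. The 250 bases before the RefSeq start of Mt1, Mt2 and Slc30a1 are printed below, because Mt2 and Slc30a1 were higher in sums of β-like cells with more Mt1, with the core of the metal response element bound by Mtf1 in capitals (TGCACNC or TGCGCNC, either strand).
Mt1, chr8:94178839-94179088, plus strand: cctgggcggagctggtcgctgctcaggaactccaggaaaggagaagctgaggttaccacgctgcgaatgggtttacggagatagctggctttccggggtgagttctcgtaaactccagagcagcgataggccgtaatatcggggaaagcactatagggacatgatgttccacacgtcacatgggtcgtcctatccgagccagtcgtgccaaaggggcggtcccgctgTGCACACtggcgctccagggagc
Mt2, chr8:94172368-94172617, plus strand: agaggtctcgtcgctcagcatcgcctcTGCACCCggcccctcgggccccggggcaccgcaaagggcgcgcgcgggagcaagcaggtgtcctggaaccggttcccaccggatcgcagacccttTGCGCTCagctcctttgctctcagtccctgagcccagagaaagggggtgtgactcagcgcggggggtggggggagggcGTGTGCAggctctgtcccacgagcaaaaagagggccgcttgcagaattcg
Slc30a1, chr1:191906531-191906780, plus strand: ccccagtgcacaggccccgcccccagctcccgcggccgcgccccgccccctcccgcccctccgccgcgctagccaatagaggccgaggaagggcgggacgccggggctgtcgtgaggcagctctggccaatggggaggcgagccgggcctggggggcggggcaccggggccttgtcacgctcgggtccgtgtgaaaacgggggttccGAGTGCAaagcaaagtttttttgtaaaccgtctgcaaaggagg
The window of Mt2 held 3 cores and those of Mt1 and Slc30a1 held 1 each, as did that of Slc30a5, while that of Slc30a7 held 0. At least 1 core occurred in 23.8% of 27025 promoters of the same length and at least 3 in 1.46%. GENCODE annotates 3 Mt1 transcripts whose starts span 159 bases, and a further 4 cores lay in the 152 bases between the printed window and the last of those starts. The shares of promoters are for windows at 1 RefSeq start per gene and do not apply to those further bases. RefSeq and GENCODE starts differ for the other genes too. The Mt2 window ends before the GENCODE start of Mt2, with the bases between them not searched, and the Slc30a1 window runs past that of Slc30a1. The core matches describe the sequence and are not evidence of binding.

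**Figure D1:**
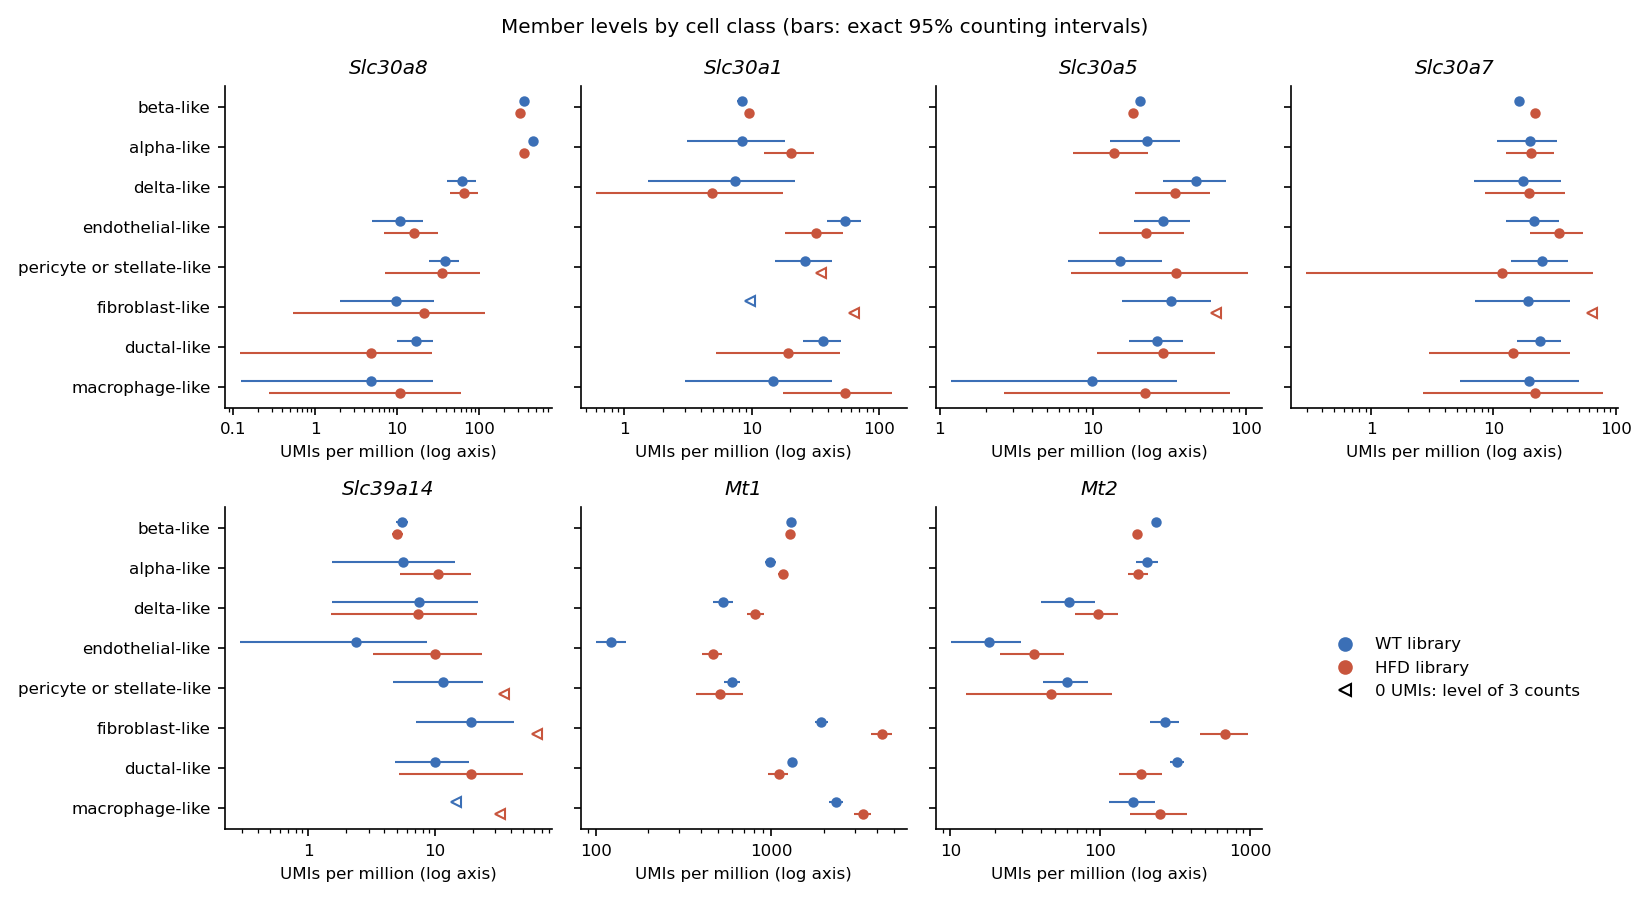
Level of each of the 7 genes in 8 cell classes, in CPM (UMIs per 1000000 UMIs of the class) on a log axis, with exact 95% counting intervals, for the WT library (blue) and the HFD library (red); open triangles stand at the level of 3 counts where a class had 0 UMIs. Slc30a8 was at 316 to 454 CPM in alpha-like and β-like cells and below 67 in the other 6 classes, whereas Mt1 was above 120 in every class shown.

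Among the named classes, Slc30a8 was highest in alpha-like and β-like cells, in an order that turned with the scaling. Its level in alpha-like cells was 454 counts per 1000000 UMIs of the class (CPM; interval 406 to 507) in WT and 356 (321 to 395) in HFD. In β-like cells it was 354 (349 to 358) in WT and 316 (312 to 319.7) in HFD, below the alpha-like level in each library. Hormone transcripts take most UMIs of a β-like cell, however, and without hormone and mitochondrial UMIs the order was reversed, at 1172 CPM in β-like against 759 in alpha-like cells of WT and 974 against 617 in HFD. Delta-like cells followed at 62.2 and 66.4 CPM, and the pericyte or stellate-like, ductal-like, endothelial-like, fibroblast-like and macrophage-like cells held 4.80 to 38.1 CPM, with overlapping intervals among most of them. With each cell thinned to 2000 UMIs, 50.8% of WT and 48.4% of HFD β-like cells had a Slc30a8 UMI, against 60.7% and 52.0% of alpha-like, 2.08% and 9.17% of delta-like and 2.52% and 2.04% of endothelial-like cells, the last a class without insulin granules with medians of 4653 and 3075 UMIs. Unthinned shares were 98.4% and 95.3% in β-like and 7.09% and 5.76% in endothelial-like cells. The insulin cells low in UMIs, not a named class, held more, at 509.6 CPM (449.7 to 575) in WT and 373 (290.5 to 471) in HFD. Without hormone and mitochondrial UMIs they were at 1289 and 1235 CPM. Insulin cells with other hormones held 286 and 262 CPM.

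Free RNA from β-like cells was taken to keep its transcripts in 1 ratio in every class, which was not tested. On that assumption the insulin UMIs of a class give the Slc30a8 count that such RNA would bring. The 322 Slc30a8 UMIs of WT alpha-like cells stood against 7.34 so predicted, and the 368 of HFD alpha-like cells against 7.77. Delta-like cells had 25 against 1.93 in WT and 27 against 13.5 in HFD, where insulin was 6.02% of their UMIs against 0.835% in WT, and 1 WT cell held 40.0% of the 25. Pericyte or stellate-like cells had 23 against 24.0 in WT, about the predicted count.

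The other transporters were found in endocrine and non-endocrine classes alike, mostly on few UMIs. Slc30a1, the plasma membrane exporter, was at 54.0 CPM (39.4 to 72.3) in WT endothelial-like cells and 36.3 (25.4 to 50.3) in WT ductal-like cells, against 8.46 (7.71 to 9.27) in WT β-like cells. The HFD values were 32.1 (18.3 to 52.0), 19.2 (5.23 to 49.2) and 9.55 (8.85 to 10.3) CPM. Alpha-like cells overlapped the WT β-like interval at 8.47 CPM on 6 UMIs and lay above the HFD one at 20.3 (12.6 to 31.1) on 21 UMIs, and fibroblast-like cells had 0 Slc30a1 UMIs in both libraries. The gap of endothelial-like to β-like cells was smaller on the other scale: without hormone and mitochondrial UMIs, Slc30a1 was at 56.3 CPM in endothelial-like against 28.1 in β-like cells of WT and at 33.6 against 29.5 in HFD. Ductal-like cells were then at 39.1 CPM in WT and, below β-like cells, at 20.5 in HFD. Alpha-like cells were at 14.1 CPM in WT, below β-like cells, and at 35.2 in HFD. In cells thinned to 2000 UMIs, 11.8% (6.58 to 19.0) of WT endothelial-like and 1.98% (1.37 to 2.78) of WT β-like cells had a Slc30a1 UMI, and in HFD the intervals overlapped (5.10%, 1.68 to 11.5, and 2.28%, 1.90 to 2.71). In the 8 classes plotted, Slc30a5 ranged from 9.77 CPM in WT macrophage-like cells (2 UMIs) to 47.3 in WT delta-like cells, and Slc30a7 from 11.7 in HFD pericyte or stellate-like cells (1 UMI) to 34.1 in HFD endothelial-like cells, both with 0 UMIs in HFD fibroblast-like cells. Slc39a14 was the scarcest member in β-like cells, at 5.53 CPM in WT and 5.07 in HFD, with 306 and 372 UMIs, and macrophage-like cells had 0 Slc39a14 UMIs in both libraries (3 counts would be 14.7 and 32.7 CPM).

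Mt1 had the most UMIs of the 7 genes in each of the 9 named classes, on a scale that tags 1 end of a transcript and is not divided by length. Macrophage-like cells held 2344 CPM (2139 to 2564) in WT and 3322 (2959 to 3716) in HFD, and fibroblast-like cells 1931 and 4247. β-like (1303 and 1284 CPM), ductal-like (1313 and 1100) and alpha-like cells (989 and 1162) came next. This order also turned without hormone and mitochondrial UMIs, where β-like cells were at 4319 and 3966 CPM, macrophage-like at 2464 and 3499, fibroblast-like at 2007 and 4463, ductal-like at 1414 and 1172 and alpha-like at 1652 and 2012. On both scales the low end was held by endothelial-like cells at 122 and 463 CPM and T-like cells at 118 (3 UMIs) and 84.6. Mt2 had lower counts and another order, with 326 CPM in ductal-like, 271 in fibroblast-like, 234 in β-like and 166 in macrophage-like cells of WT and 679, the highest HFD level, in fibroblast-like cells. It was at 18.0 CPM in WT endothelial-like cells, and WT T-like cells had 0 Mt2 UMIs. Mt1 exceeded the count predicted from insulin UMIs in endothelial-like cells, with 102 UMIs against 8.30 in WT and 231 against 11.3 in HFD.

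Between the diets, a gene was counted as higher or lower where its HFD to WT ratio of CPM was past 1.5-fold, its counting interval excluded 1 and the class held at least 50 of its UMIs. In β-like cells 0 of the 7 members met that rule, where 3.46% of 12082 genes were counted as higher and 4.39% as lower. Slc30a8 went from 354 to 316 CPM, a ratio of 0.893 (0.876 to 0.910). Mt1 was at 1303 and 1284 CPM, a ratio of 0.986 (0.976 to 0.996), and Mt2 at 234 and 176, a ratio of 0.752 (0.734 to 0.771). The secretory pathway transporters moved in opposite directions by less than the rule asks: Slc30a7 was at 16.3 and 21.8 CPM (ratio 1.34, 1.23 to 1.46) and Slc30a5 at 20.2 and 18.2 (0.901, 0.832 to 0.977). Slc30a1 stood at 8.46 and 9.55 CPM (1.13) and Slc39a14 at 5.53 and 5.07 (0.915, 0.785 to 1.07). The median log2 ratio of 464 β-like genes at 100 CPM or more was 0.20, and relative to it Slc30a8 was at 0.779, Mt1 at 0.860 and Mt2 at 0.656, the last of which is past 1.5-fold.

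The β-like comparison of the metallothioneins turned on how cells of unlike depth were matched. The median β-like cell had 29733 UMIs in WT and 11790 in HFD, and in groups of equal size ranked by UMIs within a library, Mt1 was at 2363 CPM in the shallowest and 1082 in the deepest WT group and at 2127 and 1060 in HFD. The 52 WT cells under 5000 UMIs went against that order, at 1293 CPM against 2277 at 5000 to 15000 UMIs. Within bands of equal UMIs per cell, the Mt1 ratio was 0.641 at 5000 to 15000 UMIs, 0.681 at 15000 to 30000 and 0.654 above 30000, and the Mt2 ratio was 0.407, 0.422 and 0.403. The band below 5000 UMIs, with 52 WT and 170 HFD cells, had an Mt1 ratio of 1.55 (1.33 to 1.81). When β-like cells were instead ranked by UMIs within their own library and split into 4 groups of equal size, the Mt1 ratio was 0.900, 0.950, 1.05 and 0.979 from the shallowest to the deepest group and the Mt2 ratio 0.686, 0.682, 0.830 and 0.750. Slc30a8 stayed below 1 in both matchings, at 0.661 to 0.868 in the bands and 0.850 to 0.965 in the ranked groups. Apart from the band below 5000 UMIs, where it was 1.31 (0.935 to 1.89), the Mt2 ratio was below 1 in every matching, while its size and that of Mt1 followed the matching. Whether the gap in UMIs per cell is one of sequencing or of RNA content was not tested.

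**Figure D2:**
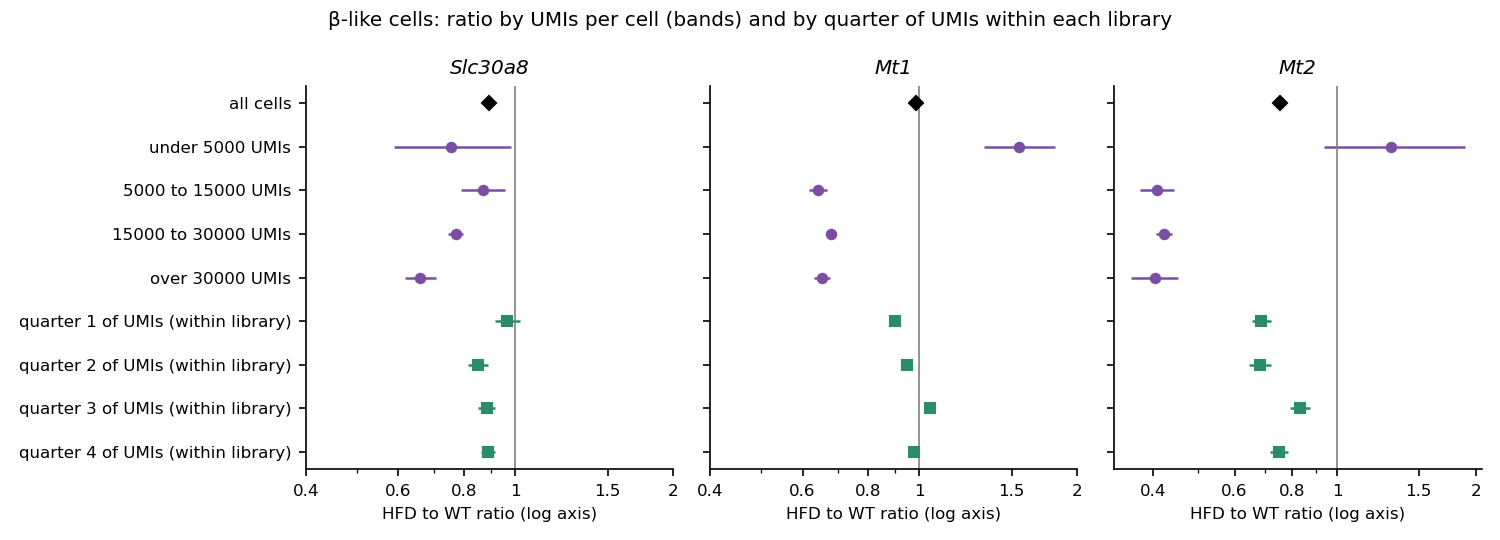
HFD to WT ratio of Slc30a8, Mt1 and Mt2 in β-like cells on a log axis with exact 95% counting intervals: all cells (black), bands of equal UMIs per cell (purple) and 4 groups ranked by UMIs within each library (green). Mt1 sits at 0.641 to 0.681 in the 3 bands above 5000 UMIs and at 0.900 to 1.05 in the ranked groups.

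Within β-like clusters, Slc30a8 held its level where Mt1 did not. Of the 8 clusters with at least 10 cells of each library, the Slc30a8 ratio was 0.875 to 1.08 in 7 and 0.567 in cluster 16, which had 10 WT cells. Mt1 in cluster 0, led by C2cd4b, Fos, Mafa and Slc2a2, went from 681 to 1627 CPM (ratio 2.39, 2.32 to 2.46), and in cluster 1, led by Rasd1 and Fos, from 1115 to 2078 (1.86, 1.81 to 1.92). In cluster 5, led by Mt2, Mt1, Nupr1 and mitochondrial transcripts, it went the other way, from 4525 to 2144 CPM (0.474, 0.460 to 0.488). Clusters 2, 3 and 15 had ratios of 0.702, 0.598 and 0.588, cluster 14 a ratio of 1.56 with 11 WT cells, and cluster 16 a ratio of 0.905. The WT library thus spread over a wider range of cluster levels (502 to 4525 CPM) than the HFD library (783 to 2551). Mt2 took the same side of 1 as Mt1 in all 8 clusters. Slc30a1 had a ratio of 1.55 (1.02 to 2.29) in cluster 0 and 1.75 (1.16 to 2.58) in cluster 1, and of 0.421 (0.288 to 0.619) in cluster 5, from 31.6 to 13.3 CPM. Cells of unlike depth entered these ratios as well, since cluster 0 had a median of 37359 UMIs in WT and 13294 in HFD.

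**Figure D3:**
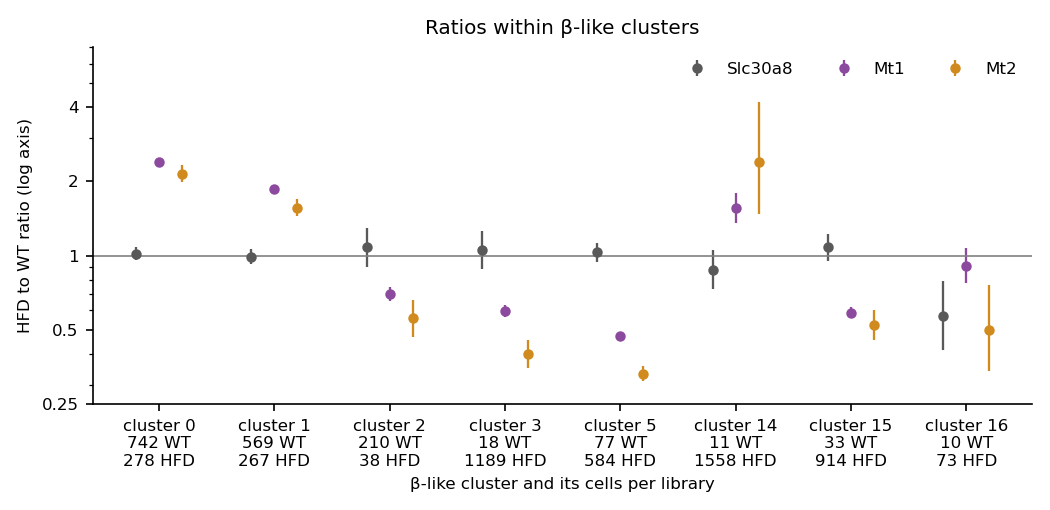
HFD to WT ratio of Slc30a8 (grey), Mt1 (purple) and Mt2 (orange) within the 8 β-like clusters that held at least 10 cells of each library, on a log axis with exact 95% counting intervals; the cells per library stand under each cluster. Mt1 is above 1 in clusters 0, 1 and 14 and below 1 in clusters 2, 3, 5, 15 and 16, and Slc30a8 is near 1 in all but cluster 16.

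Single β-like cells differed far more in Mt1 than in Slc30a8. Leaving out the lowest and highest 10% of WT cells, Mt1 ran from 117 CPM to 3995 with a median of 917, and in HFD from 141 to 3258 with a median of 1049. For Slc30a8 the low end, median and high end were 189.7, 349 and 573 in WT and 102, 301 and 604 in HFD. In cells thinned to 2000 UMIs the variance over the mean, which is 1 for counting error alone, was 4.45 in WT and 3.44 in HFD for Mt1, 1.87 and 1.5 for Mt2, and 1.01 and 1.07 for Slc30a8. The 5% of cells with most Mt1 carried 23.3% of its UMIs in WT and 19.1% in HFD. Mt1 and Mt2 varied together over thinned cells (Pearson r = 0.58 over 1663 WT cells and 0.45 over 5483 HFD cells, cells of 1 library each), and 41.6% of WT cells with a thinned Mt1 UMI had an Mt2 UMI against 11.2% of those without. For Mt1 and Slc30a8 r was 0.01 in WT and 0.07 in HFD, and for Mt1 and the sparse Slc30a1 0.13 and 0.04.

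Summed over all β-like cells of a library, cells with more Mt1 also had more Slc30a1, while Slc30a8 differed by 1.25-fold or less. β-like cells were binned by the Mt1 UMIs among their 2000 thinned UMIs, and the other genes were then summed at full depth. In WT, Slc30a1 was at 4.51 CPM (3.54 to 5.67) in 455 cells with 0 Mt1 UMIs, 7.07 with 1 to 2, 8.91 with 3 to 5 and 19.1 (16.2 to 22.3) in 290 cells with 6 or more, a ratio of 4.22 (3.18 to 5.65) between the outer bins. In HFD it was at 5.84, 8.20, 12.1 and 15.5 CPM, a ratio of 2.66 (2.07 to 3.43) between 911 and 1291 cells. Slc30a8 was at 340.4, 362, 364 and 346 CPM in WT (outer ratio 1.02) and at 288, 306, 333 and 362 in HFD (1.25, 1.2 to 1.31). Mt2, the neighbouring gene, went from 57.5 to 756 CPM in WT (13.2-fold) and from 52.0 to 483 in HFD (9.30-fold). The ratios of Slc30a5, Slc30a7 and Slc39a14 lay between 0.994 and 1.28, and none passed 1.5-fold. Many genes moved between these bins: 25.5% of 9859 genes were counted as higher in WT and 14.7% of 10064 in HFD, with a median log2 ratio of 0.35 and 0.26. Slc30a1 ranked at 60 of the 2511 higher genes in WT by ratio and at 65 of 1477 in HFD.

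**Figure D4:**
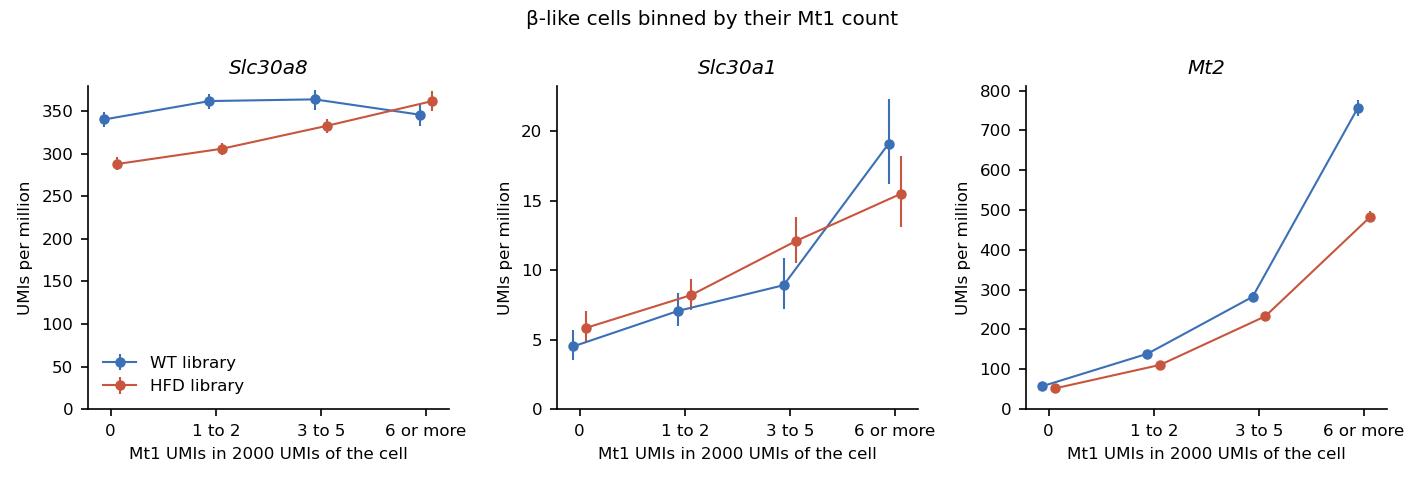
Levels of Slc30a8, Slc30a1 and Mt2 (CPM, axes from 0, exact 95% counting intervals) in β-like cells binned by the Mt1 UMIs among 2000 UMIs of each cell, for the WT (blue) and HFD (red) libraries. Slc30a1 is at 4.51 and 5.84 in the bin with 0 Mt1 UMIs and at 19.1 and 15.5 in the bin with 6 or more; Slc30a8 stays between 288 and 364.

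Depth, insulin share and mitochondrial share moved along these bins, and their part in the result was not tested outside the depth bands given here. WT cells with 0 and with 6 or more Mt1 UMIs had medians of 33313 and 23110 UMIs and insulin at 64.0% and 57.3% of UMIs; in HFD the medians were 12829 and 8972 and the insulin shares 58.4% and 54.9%. The median mitochondrial share went from 3.0% to 4.24% in WT and from 2.76% to 4.11% in HFD. Within bands of UMIs per cell the Slc30a1 ratio stayed above 2: 3.85 (2.43 to 6.30) in WT cells of 15000 to 30000 UMIs and 4.15 (2.81 to 6.17) above 30000, and 2.50 (1.77 to 3.56) and 2.98 (1.99 to 4.49) in HFD cells of 5000 to 15000 and 15000 to 30000. The exception, WT cells of 5000 to 15000 UMIs at 0.710, had 4 and 5 UMIs. Within clusters it was 3.47 (1.86 to 6.19) in WT cluster 0, 6.38 (2.59 to 20.4) in HFD cluster 3 and 2.43 (1.37 to 4.14) in HFD cluster 14, whereas it was 0.609 (0.206 to 1.5) in WT cluster 1 and 1.14 and 1.54 in HFD clusters 4 and 5, with intervals that include 1.

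Outside β-like cells, the metallothioneins were the members that passed the 1.5-fold rule, but most transporters there had under 50 UMIs and were not tested. Only Mt1 and Mt2 were tested in fibroblast-like, ductal-like and macrophage-like cells, and only Mt1 in pericyte or stellate-like cells. Endothelial-like cells had Mt1 and Slc30a1 tested. Alpha-like, delta-like and low-UMI insulin cells had Slc30a8, Mt1 and Mt2. All 7 were tested in insulin cells with other hormones. In endothelial-like cells Mt1 went from 122 CPM (102 UMIs) to 463 (231 UMIs), a ratio of 3.78 (2.98 to 4.82), where 5.62% of 4148 genes were counted as higher. Nearly all HFD endothelial-like cells (138 of 139) were in cluster 102, which held 53 of the 127 WT cells, and within it the ratio was 2.69 (2.03 to 3.61), from 172 to 464 CPM. Slc30a1 in the same cells went from 54.0 to 32.1 CPM (0.593, 0.313 to 1.07), which does not pass the rule; within cluster 102 it went from 75.4 to 32.1 CPM (0.426, 0.215 to 0.815) on 28 and 16 UMIs, under the 50 that the rule asks. In fibroblast-like cells Mt1 went from 1931 to 4247 CPM (2.20, 1.86 to 2.59) and Mt2 from 271 to 679 (2.51, 1.62 to 3.81), where 7.46% of 1073 genes were higher; the HFD sum came from 23 cells. In delta-like cells Mt1 went from 532 to 812 CPM (1.52, 1.28 to 1.82), where 3.61% of 1967 genes were higher, and Mt2 from 62.2 to 95.9 (1.54, 0.910 to 2.66). The insulin UMIs of delta-like cells predicted 7.11 of the 214 Mt1 UMIs in WT and 54.8 of the 330 in HFD, and the part of such RNA in this ratio, which lies close to the 1.5-fold limit, was not tested. The delta-like call of Mt1 was lost at a clustering resolution of 2 (ratio 1.11), and the endothelial-like one at 0.5 (1.46).

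Mt2 was lower in HFD ductal-like cells, at 187 CPM against 326 (ratio 0.575, 0.401 to 0.803), where 8.83% of 3679 genes were lower, and Mt1 there was at 1100 against 1313 (0.837). The Mt2 call was lost with cells of at most 15000 UMIs (0.722). In the insulin cells low in UMIs, Mt1 was at 378 CPM against 1513 (0.25, 0.193 to 0.319) and Mt2 at 47.9 against 321 (0.149, 0.0671 to 0.290). There 40.4% of 894 genes were counted as lower and the median log2 ratio of these genes was -0.61, beside -2.0 for Mt1 and -2.74 for Mt2, in cells whose mitochondrial UMIs made up a median of 12.7% in HFD but 0.935% in WT. The class mixed cluster 6 (67 WT and 6 HFD cells) and cluster 8 (77 and 42) in unlike shares. Within cluster 8 Slc30a8 also went from 1360 to 392 CPM (0.288, 0.211 to 0.391), beside Mt1 from 1259 to 263 (0.209, 0.144 to 0.298). Macrophage-like Mt1 went from 2344 to 3322 CPM (1.42, 1.22 to 1.64), inside 1.5-fold. In alpha-like cells 0 of the 3 members with 50 UMIs passed, where 1.65% of 3386 genes were higher and 8.36% lower: Slc30a8 had a ratio of 0.784 (0.673 to 0.914), Mt1 of 1.17 (1.07 to 1.29) and Mt2 of 0.869 (0.696 to 1.09). Insulin cells with other hormones had ratios of 0.916, 0.896 and 0.772 for Slc30a8, Mt1 and Mt2.

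**Figure D5:**
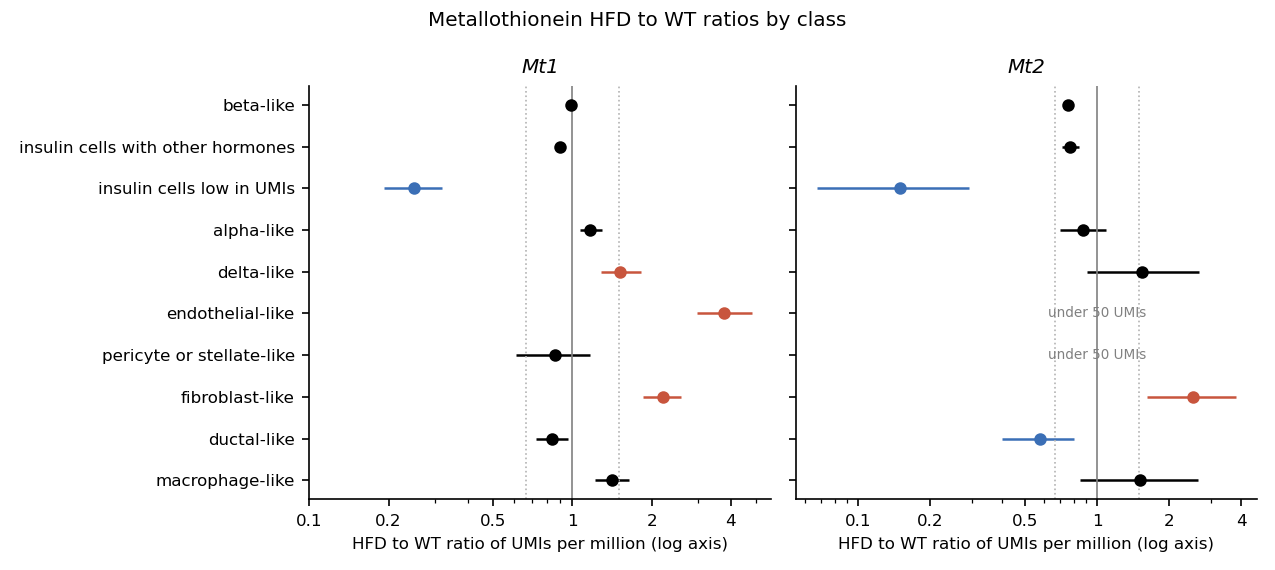
HFD to WT ratio of Mt1 and Mt2 by class on a log axis with exact 95% counting intervals; dotted lines mark 1.5-fold, red points were counted as higher, blue points as lower and black points as neither, with no point where a class had under 50 UMIs of the gene. Mt1 is at 3.78 in endothelial-like and 2.20 in fibroblast-like cells and at 0.986 in β-like cells.

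The other zinc genes were mostly level in β-like cells. Of 22 further transporters, metallothioneins and their regulator, 13 had 50 UMIs there, 1 was higher in HFD and 0 were lower, with a median log2 ratio of 0.03. The higher gene was Slc39a11, which encodes ZIP11, at 2.71 CPM in WT and 5.02 in HFD (1.85, 1.53 to 2.25). Mtf1, the zinc-sensing factor, had a ratio of 0.857 (0.790 to 0.930) and Mt3, the neuronal metallothionein, one of 1.40 (1.21 to 1.63). In the other classes 0 of the tested genes of this list passed the rule, but few could be tested in most of them. Tested were 13 in insulin cells with other hormones, 3 in each of endothelial-like and ductal-like cells and 2 in alpha-like cells. Delta-like cells, fibroblast-like cells and insulin cells low in UMIs had 1 each. Pericyte or stellate-like, macrophage-like and T-like cells had 0. Between Mt1-rich and Mt1-free β-like cells, 2 of 13 tested genes of the list were higher in WT (Slc30a4, 1.75, and Slc39a1, 1.51). In HFD 1 of 13 was higher, Slc39a1 (1.85, 1.36 to 2.52), and Mt3 was lower, at 4.39 against 9.94 CPM (0.442, 0.309 to 0.618). Over all genes 25.5% were higher in this contrast in WT and 14.7% in HFD, so the list did not stand out. The median log2 ratio of all tested genes was 0.35 in WT and 0.26 in HFD.

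Lists of genes for inputs that can act on metallothioneins were counted in β-like cells by the same rule. Over all 12082 genes 3.46% were higher and 4.39% lower there, with a median log2 ratio of 0.00. Of 6 tested glucocorticoid response genes 0 were higher and 2 lower, Dusp1 (86.7 to 19.8 CPM) and Per1 (20.7 to 11.8), with a median of -0.36. Of 7 oxidative stress genes 1 was higher (Slc7a11, the cystine transporter, 2.04 to 6.03 CPM) and 1 lower, with a median of 0.09. Of 5 heat shock genes 2 were higher, with a median of 0.50, and of 7 immediate early genes 5 were lower, with a median of -1.10. Fos, among the latter, went from 829 to 165 CPM. The immediate early shift was not particular to β-like cells. In the other classes 0 of these genes were higher, and from 2 of 7 (fibroblast-like) to 7 of 7 (alpha-like, pericyte or stellate-like and macrophage-like) were lower. Heat shock genes took another direction elsewhere: 3 of 5 were lower in endothelial-like and 3 of 3 in macrophage-like cells. In delta-like cells 1 of 5 was higher and 3 were lower.

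The genes most like 4 of the members were ranked by the Pearson correlation of log2(CPM + 1) over 19 sums of class and library with at least 100000 UMIs, among 12304 genes; the sums share libraries and depth, and no test was made. The pattern of Slc30a8 was nearest to Vdr (r = 0.937), Uqcc2, Chga, Slc7a2 and Hyou1 (0.902). Mt1 and Mt2 were nearest to each other (0.928), ahead of Cd63, Ang, Nucb2 and Isoc2b for Mt1 (0.727 to 0.680) and of Ang, Nucb2, Pycr1 and Abcb6 for Mt2 (0.749 to 0.710). Slc39a14 was nearest to Sdc2 (0.852), Usp46, Snhg18, Arhgap21 and Parva. Across these sums Slc30a8 showed r = 0.05 with Mt1 and r = 0.21 with Slc30a1, and Slc30a1 showed r = -0.28 with Mt1, unlike the order over single β-like cells.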

How the data were processed

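Islet cells of 1 WT and 1 HFD library were profiled with the 10x 3′ v3 kit. Per the labels the authors ran Cell Ranger 3.0.2 against mm10, and the deposited tables hold raw UMI counts per gene and barcode, 3895 barcodes with 73843674 UMIs in WT and 8951 with 94375138 in HFD. Barcodes with at least 500 genes and at most 20% mitochondrial UMIs were kept, with no UMI maximum. Scrublet scores were ranked and the highest left out at a rate of 0.8% per 1000 barcodes (121 in WT, 641 in HFD), since its own threshold marked 12 and 0. Cells were clustered with scanpy 1.11.5 (2000 variable genes, 50 components, Leiden resolution 1). A class was named where at least 3 of its markers were detected and markers of another class did not outnumber its own among the leading genes. Named clusters can thus hold markers of another class, such as Rgs5 in endothelial-like cluster 102 and Pyy in alpha-like cluster 110. Clusters low in UMIs with no leading marker of their own were not named. UMIs were summed per class and library, without dividing by length. Levels carry exact Poisson intervals, ratios exact conditional binomial intervals and shares are of cells thinned to 2000 UMIs. These cover counting error only, and no p-value was computed because each group is 1 library. edgeR 4.0.16 gave TMM factors only. The ratio and interval code was tested on simulated data. Alternatives changed the cell filters, the scaling, the clustering resolution and the depth matching; the ranked depth groups and the pool of all insulin clusters were chosen after seeing the data. Named by rule were all 7 members, zinc genes past 1.5-fold in β-like cells, the 5 genes most like 4 members, and at most 3 genes per stress list. Zinc genes that differed by Mt1 and the genes leading that contrast were named after their values were seen. The β-like ratios of Mtf1 and Mt3, both inside 1.5-fold, were given outside this rule. Gene positions are from GENCODE M21. Members and lists were chosen with earlier results of these data known.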

Additional observations from a re-analysis of the deposited data

Results flagged for a closer look

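The Mt1 ratio lay on opposite sides of 1 in different classes by more than 1.5-fold: 3.78 in endothelial-like, 2.20 in fibroblast-like and 1.52 in delta-like cells, against 0.25 in insulin cells low in UMIs. The difference between classes was not tested. Mt2 showed the same split, with 2.51 in fibroblast-like cells against 0.575 in ductal-like cells and 0.149 in insulin cells low in UMIs, also untested.

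Within β-like clusters the Mt1 ratio was 2.39 in cluster 0, 1.86 in cluster 1 and 1.56 in cluster 14, against 0.598 in cluster 3, 0.474 in cluster 5 and 0.588 in cluster 15. The difference between clusters was not tested, and clusters 3 and 14 held 18 and 11 WT cells.

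Barcodes left out for over 20% mitochondrial UMIs, 1009 in WT and 1123 in HFD, also held Mt1, at 296 CPM in WT and 512 in HFD (ratio 1.73, 1.52 to 1.96), whereas their Slc30a8 level was 375 and 336 (0.897, 0.782 to 1.03), near that of kept β-like cells.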

How the results depend on the processing

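No paired analysis was possible because each group is 1 library. The libraries differ in depth, and alternatives that touch depth moved the β-like ratios most. With cells of at most 15000 UMIs, the ratios were 0.834 for Slc30a8, 0.679 for Mt1 and 0.437 for Mt2. Without hormone and mitochondrial UMIs they were 0.831, 0.918 and 0.70, and scaled to the median of genes at 100 CPM 0.779, 0.860 and 0.656. Thinned to 2000 UMIs, Slc30a8 was at 0.951 and Mt1 at 1.0. In the 4 bands of UMIs per cell, from the shallowest, Slc30a8 was at 0.757, 0.868, 0.771 and 0.661, Mt1 at 1.55, 0.641, 0.681 and 0.654, and Mt2 at 1.31, 0.407, 0.422 and 0.403. In the first 3 groups ranked within each library, an alternative chosen after seeing the data, Mt1 was at 0.900, 0.950 and 1.05 and Mt2 at 0.686, 0.682 and 0.830, and in the first 2 Slc30a8 was at 0.965 and 0.850. Keeping all barcodes gave 1.1 for Mt1 and 0.824 for Mt2. Mt1 was at 0.996 with at most 10% mitochondrial UMIs, 0.975 as a mean of cells, 1.01 at resolution 2 and 0.974 over all insulin clusters, the last also added after seeing the data. The number of members past 1.5-fold in β-like cells, 0 in the report, was 1 with at most 15000 UMIs, scaled to the median and thinned, and 1, 3, 1 and 3 in the bands. The member past it when thinned was Slc30a7, with a mean of 0.0301 UMIs per cell in WT and 0.0469 in HFD. Its ratio was 3.26 (0.495 to 138), 1.13, 1.44 and 1.16 in the bands and 1.30, 1.45, 1.34 and 1.31 in the ranked groups. The cause of these shifts was not tested. In other classes the Mt1 and Mt2 calls in fibroblast-like cells held in 9 of 9 alternatives, and those in insulin cells low in UMIs in 8 of 8.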

Other observations

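β-like cells rich in Mt1 shared further genes in both libraries. Comparing cells with 6 or more thinned Mt1 UMIs with those that had 0, 886 genes were counted as higher in both libraries and 47 as lower in both. Of 9859 genes tested in WT 2511 were higher and 146 lower, and of 10064 in HFD 1477 were higher and 139 lower. Whether the overlap exceeds what such broad shifts would give was not tested. After Mt2, the leading genes by the smaller of the 2 ratios were Klhdc8a (6.36-fold in WT, 6.43-fold in HFD), Ppargc1a, a coactivator of mitochondrial genes (5.57 and 5.52), Ahnak (4.96 and 4.88) and Nfkbie, an inhibitor of NF-κB (6.49 and 4.23). Relb, an NF-κB subunit, was at 4.45 and 3.27, and Slc30a1 ranked at 32 by the same order. Some of the leading genes differed more in WT than in HFD: Litaf by 10.8-fold and 3.8-fold, Rtp4 by 10.4-fold and 3.57-fold, and Parp14 by 9.22-fold and 3.88-fold, the last of which, like Rtp4, is an interferon-inducible gene. These genes were named after their values were seen, and the difference between libraries was not tested.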
